A study of Mus musculus with 18 samples.

Results

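The genes described here are 10 secreted mediators of macrophage inflammation: the cytokines Tnf, Il1a, Il1b, Il6, Il12b and Il18, the interleukin-1 receptor antagonist Il1rn, the anti-inflammatory cytokine Il10, and the neutrophil chemokines Cxcl1 and Cxcl2. They were found by their symbol on the arrays, where 12 of 41174 probes and 10 of 21307 named genes carried it. RNA came from mouse bone marrow-derived macrophages, which were grown from marrow of C57BL6/J mice aged 8 to 12 weeks with human recombinant CSF1, from animals of both sexes. Each of 18 samples was measured on 1 single-colour array, in 6 groups of 3: Irf4-/- cells kept as mock (18 h without IL-4), given 10 ng/ml recombinant mouse IL-4 during 4 h, or given it during 18 h, and Irf4+/- littermate cells kept in the same 3 ways. The control genotype was thus heterozygous, mock was taken at 18 h only, and cells of several animals were pooled in a sample. Culture lasted 4 h in the 4 h IL-4 groups and 18 h in the others. In comparisons of 4 h with mock, IL-4 and time in culture therefore cannot be told apart. Between 18 h and 4 h of IL-4, length of exposure and time in culture cannot be told apart either. The letters A, B and C of the samples name 3 experiments. The design asks how IL-4 changes expression and whether that change differs without Irf4.

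Tnf and the interleukin-1 cytokines are early alarm signals of macrophages, and Cxcl1 and Cxcl2 call neutrophils through the receptor Cxcr2. Their genes are textbook targets of NF-kB, which is held in the cytoplasm by inhibitor proteins until Toll-like receptors, Tnf or interleukin-1 signal. IL-4 acts through its receptor and STAT6, drives the alternative form of macrophage activation, and is known to restrain inflammatory cytokines, while Irf4 is a transcription factor that IL-4 induces.

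The promoters of Cxcl1 and Cxcl2 are shown as those of a pair of neighbouring paralogues, and that of Tnf beside them. Il18 was added because it was called in the most comparisons among the further members. RefSeq starts on the build GRCm38.p6 gave the 250 bases before the start for 9 of the 10 members, in 11 windows, and those for Il10 were not analysed here. Cxcl1 lies at chr5:90890995-90891244 and Cxcl2 at chr5:90903649-90903898, both on the plus strand, Tnf at chr17:35202008-35202257 on the minus strand, and Il18 at chr9:50554450-50554699 on the plus strand. Capitals mark matches to the NF-kB consensus and to TATAAA on either strand, and each sequence is written 5′ to 3′ along its gene.
Cxcl1: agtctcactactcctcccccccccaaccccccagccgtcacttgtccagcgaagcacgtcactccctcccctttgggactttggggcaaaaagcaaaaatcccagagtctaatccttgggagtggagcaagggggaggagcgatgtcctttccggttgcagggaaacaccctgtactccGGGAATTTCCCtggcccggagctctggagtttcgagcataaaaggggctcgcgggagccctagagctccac
Cxcl2: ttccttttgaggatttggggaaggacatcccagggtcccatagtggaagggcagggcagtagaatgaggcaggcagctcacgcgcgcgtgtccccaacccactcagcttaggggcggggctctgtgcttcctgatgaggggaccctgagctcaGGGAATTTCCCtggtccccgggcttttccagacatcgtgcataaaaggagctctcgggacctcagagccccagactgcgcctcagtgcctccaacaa
Tnf: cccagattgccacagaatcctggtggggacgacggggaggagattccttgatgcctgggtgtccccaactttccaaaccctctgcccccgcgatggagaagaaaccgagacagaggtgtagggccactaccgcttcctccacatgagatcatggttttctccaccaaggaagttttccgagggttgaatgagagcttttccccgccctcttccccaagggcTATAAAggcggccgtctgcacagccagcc
Il18: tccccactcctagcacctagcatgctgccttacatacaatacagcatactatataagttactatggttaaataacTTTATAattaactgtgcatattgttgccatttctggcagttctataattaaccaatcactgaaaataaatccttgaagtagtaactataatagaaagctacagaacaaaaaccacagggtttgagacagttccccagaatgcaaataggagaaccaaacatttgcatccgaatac

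Cxcl1 and Cxcl2 carried the same run, GGGAATTTCCC, at which overlapping matches to the NF-kB consensus were found on both strands. It began 71 bases before the start of Cxcl1 and 97 bases before that of Cxcl2. Among the 9 members with a window, 3 held the NF-kB consensus (Il6 was the other one), against 3.9% of all 32817 promoter windows. TATAAA was found for 4 members (Tnf, Il1a, Il1b and, on the opposite strand, Il18) and in 12.4% of all windows. The AP-1 motif TGANTCA was found for 3 members (Il1a, Il1rn, Il6) and in 6.75% of windows, and the STAT6 palindrome, TTC and GAA with 4 bases between, for 2 members (Il18, Il1rn) and in 5.85%. No member held the general STAT palindrome TTCNNNGAA (7.01% of windows), the interferon regulatory factor repeat of GAAA (2.97%) or the ETS-IRF composite of GGAA and GAAA (2.3%). Both strands were searched for all 7 motifs, and a match is a description of letters. Members were counted as genes with a match in any of their 11 windows, whereas the shares are per window. A gene with several windows, such as Il1rn, thus had more places for a match.

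Levels are given as log2 intensity relative to the 75th percentile of the array, which lay between 719.2 and 1960.7 intensity units. All 9 macrophage markers, Adgre1 and Csf1r among them, were well above background on all 18 arrays. The summed linear level of 8 neutrophil markers was 15.4 to 52.7 in Irf4-/- cells after 18 h of IL-4 and 17.2 to 54.8 in their mock cells, and 13.6 to 25.8 against 18.8 to 21.7 in Irf4+/- cells. The sum of 3 monocyte markers was 9.91 to 40.0 in Irf4-/- cells after 18 h of IL-4, against 35.6 to 96.9 in mock, and 10.2 to 44.8 against 38.7 to 104.4 in Irf4+/- cells. At 4 h it was 18.5 to 75 in Irf4-/- cells and 23.2 to 85.9 in Irf4+/- cells, and Ccr2 of this list fell in Irf4+/- cells (log2 change -1.80 ± 0.428, adjusted p = 0.0262). The sum of 5 B cell markers did not overlap between 18 h of IL-4 and mock, at 0.965 to 1.18 against 1.31 to 1.83 in Irf4-/- cells and 1.16 to 1.80 against 1.99 to 2.81 in Irf4+/- cells. The sum of 5 mast cell and basophil markers was 0.0597 to 0.154 at 4 h against 0.139 to 0.162 in mock in Irf4-/- cells, and 0.0651 to 0.128 against 0.146 to 0.169 in Irf4+/- cells. Kit of that list fell at 4 h in both (changes of -2.10 and -1.86, each ± 0.447, adjusted p = 0.0142 and 0.0273). Fcer1a, the only other gene of it that was tested, did not follow, with changes of 0.24 and -0.03 (each ± 0.426). Cpa3, Mcpt8 and Ms4a2 were well above background on only 6, 1 and 1 of 18 arrays. The part of these markers in the results below was not tested, and in bulk RNA fewer cells of a type cannot be told apart from less RNA per cell. The 1 Irf4 probe read -0.97, -0.53 and -0.81 in mock cells labelled Irf4-/-, against -1.15, -0.36 and -1.80 in Irf4+/- mock cells. At 4 h of IL-4 it read 2.11, 1.5 and 1.57 in cells labelled Irf4-/-, against 2.26, 1.69 and 1.07 in Irf4+/- cells, and at 18 h 2.14, 1.17 and 1.25 against 1.76, 1.24 and 0.81. Its level was thus higher under IL-4 in both, and it did not separate the genotypes in any condition. The labels and files do not place this probe inside or outside the deleted sequence, and it checks no label. In experiments A and B each slide held 1 genotype, so IL-4 and mock arrays shared a slide but genotype and slide cannot be told apart, and in C the 6 arrays lay on 3 slides.

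Of the 10 members, 7 passed the filter on dim probes and were tested with limma among 15497 genes. A gene is said to have risen or fallen where its Benjamini-Hochberg adjusted p was under 0.05. At 4 h of IL-4, Tnf, Cxcl1 and Il18 fell in Irf4-/- cells (3 of 10 members, against 1.69% of all genes tested that fell and 3.91% called either way), and Tnf and Cxcl1 fell in Irf4+/- cells (2 of 10, against 1.94% and 4.27%). At 18 h, Il18 fell in Irf4-/- cells (1 of 10, against 1.42% and 3.54%), and Tnf, Cxcl1 and Il18 fell in Irf4+/- cells (3 of 10, against 2.02% and 4.14%). No member rose. Cxcl1 passed the filter only through the mock groups, in which it was high, so its presence among the members tested is itself tied to its direction. Arrays of the same letter deviated together, and with the letter as a replicate block the members called were 4 and 5 at 4 h, and 4 and 6 at 18 h, in Irf4-/- and Irf4+/- cells in that order. The share of all genes called was also higher there, at 18.2% in both genotypes at 4 h and at 18.4% and 15.5% at 18 h. Leaving out 1 array could end these calls: the 4 h count in Irf4-/- cells was 0 without any 1 of 5 arrays and that in Irf4+/- cells without any 1 of 4, and each 18 h count was 0 without 1 array.

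Tnf, the founding cytokine of its superfamily, had a strong signal on all 18 arrays, from 10 spots each. In Irf4-/- cells its level was 1.73, 1.18 and 1.49 in mock, -1.30, -0.93 and -1.19 at 4 h of IL-4, and -1.19, -0.56 and -0.48 at 18 h, for experiments A, B and C in that order. Tnf in Irf4+/- cells was at 0.78, -0.23 and 1.75 in mock, -2.82, -2.28 and -0.63 at 4 h, and -2.60, -1.60 and -0.56 at 18 h. Every IL-4 array lay below every mock array of its genotype, and the Irf4+/- arrays were spread more widely, with C high and A low after IL-4. Groups that do not overlap were found for 21.8% of all genes tested at each time in Irf4-/- cells, and for 16.3% at 4 h and 14% at 18 h in Irf4+/- cells. At 4 h Tnf fell in both genotypes, to 0.164 of mock in Irf4-/- cells (log2 change -2.60 ± 0.585 SE, n = 3 arrays per group, adjusted p = 0.0187) and to 0.157 of mock in Irf4+/- cells (log2 change -2.67 ± 0.585, adjusted p = 0.0153). At 18 h the change was -2.21 ± 0.585 in Irf4-/- cells, which missed the threshold (adjusted p = 0.0533, and 0.00557 with the replicate block), and Tnf fell in Irf4+/- cells, with a change of -2.35 ± 0.585 (adjusted p = 0.0344). Within the slides of A and B, the 4 h differences were -3.03 and -2.12 in Irf4-/- cells and -3.59 and -2.05 in Irf4+/- cells, and the 18 h differences were -2.92 and -1.74, and -3.38 and -1.37.

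Cxcl1, a chemokine that draws neutrophils, was low under IL-4, where part of its values came from arrays on which it was not well above background. Its level was -1.88, -3.18 and -2.85 in Irf4-/- mock cells, -7.45, -5.71 and -6.01 at 4 h and -6.38, -5.20 and -5.07 at 18 h. Cxcl1 in Irf4+/- cells was at -3.32, -3.99 and -1.52 in mock, -8.02, -6.59 and -5.12 at 4 h, and -8.59, -6.47 and -4.98 at 18 h. All 6 mock arrays were well above background, but only 2 of 3 IL-4 arrays at each time were so in Irf4-/- cells and 1 of 3 in Irf4+/- cells, where experiment C alone was measured. At 4 h Cxcl1 fell in both genotypes, with a log2 change of -3.75 ± 0.91 in Irf4-/- cells (adjusted p = 0.0302) and -3.63 ± 0.91 in Irf4+/- cells (adjusted p = 0.0347). At 18 h the change was -2.91 ± 0.91 in Irf4-/- cells (adjusted p = 0.116, and 0.0121 with the replicate block), and Cxcl1 fell in Irf4+/- cells, with a change of -3.74 ± 0.91 (adjusted p = 0.0303). Without the filter on dim probes, the adjusted p at 4 h was 0.0501 in Irf4-/- cells and 0.0568 in Irf4+/- cells, and at 18 h it was 0.178 and 0.0489. Cxcl1 rests on 1 spot per array, and a normexp background correction turned its 18 h change in Irf4+/- cells to 0.375.

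Cxcl2, the paralogue of Cxcl1 with the same receptor, followed the same course with a wider spread. Its level in Irf4-/- cells was -1.34, -1.76 and -2.15 in mock, -6.63, -4.39 and -4.91 at 4 h, and -5.67, -3.67 and -4.41 at 18 h. Cxcl2 in Irf4+/- cells was at -3.33, -2.76 and -0.31 in mock, -6.62, -5.80 and -3.75 at 4 h, and -7.18, -4.93 and -3.98 at 18 h. Only 2 of 3 arrays were well above background for it in Irf4-/- cells at 4 h and in Irf4+/- cells at 18 h. Every IL-4 array lay below every mock array of its genotype, and experiment A was the lowest of the 3 after IL-4 in both genotypes at both times. The 4 h change was -3.56 ± 0.966 in Irf4-/- cells (adjusted p = 0.0563) and -3.26 ± 0.966 in Irf4+/- cells (adjusted p = 0.0819), and the 18 h change was -2.84 ± 0.966 (adjusted p = 0.16) and -3.23 ± 0.966 (adjusted p = 0.0874). With the replicate block all 4 comparisons passed the threshold, with adjusted p of 0.00312 and 0.00522 at 4 h and 0.0135 and 0.00603 at 18 h for Irf4-/- and Irf4+/- cells.

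Il18, a cytokine kept as an inactive precursor until caspase-1 cuts it, changed less but varied little between arrays. Its level was 0.88, 0.88 and 1.05 in Irf4-/- mock cells, -0.07, 0.25 and 0.19 at 4 h, and -0.28, 0.29 and -0.22 at 18 h. Il18 in Irf4+/- cells was at 1.35, 0.93 and 0.92 in mock, 0.51, 0.49 and 0.33 at 4 h, and 0.22, 0.40 and -0.19 at 18 h. No IL-4 array reached the level of any mock array. At 4 h Il18 fell in Irf4-/- cells, with a log2 change of -0.81 ± 0.199 (adjusted p = 0.0315), while the 4 h change of -0.62 ± 0.199 in Irf4+/- cells missed the threshold (adjusted p = 0.11, and 0.0261 with the replicate block). At 18 h it fell to 0.497 of mock in Irf4-/- cells, a log2 change of -1.01 ± 0.199 (adjusted p = 0.00906), and to 0.527 of mock in Irf4+/- cells, a log2 change of -0.92 ± 0.199 (adjusted p = 0.0143).

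**Figure D1:**
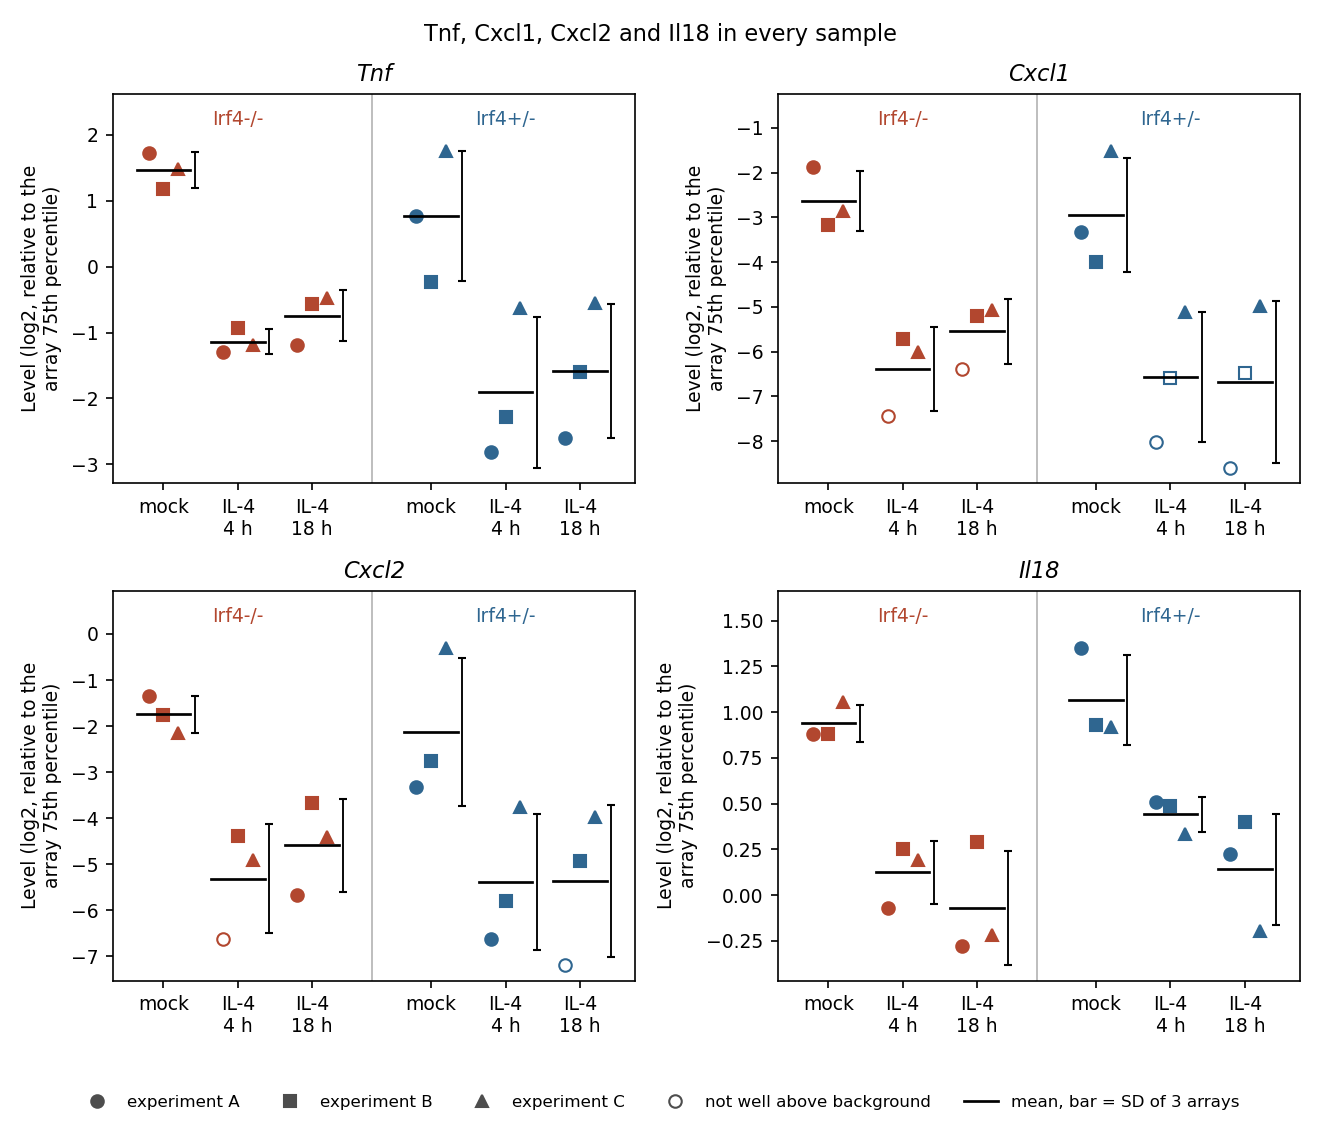
Levels of Tnf, Cxcl1, Cxcl2 and Il18 on each array (vertical axis, log2 relative to the array's 75th percentile) by genotype and condition, with 1 symbol per experiment, open where the probe was not well above background, and the mean with its SD over 3 arrays. In all 4 panels the IL-4 arrays of a genotype lie below its mock arrays, and open symbols for Cxcl1 stand in IL-4 groups only.

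**Figure D2:**
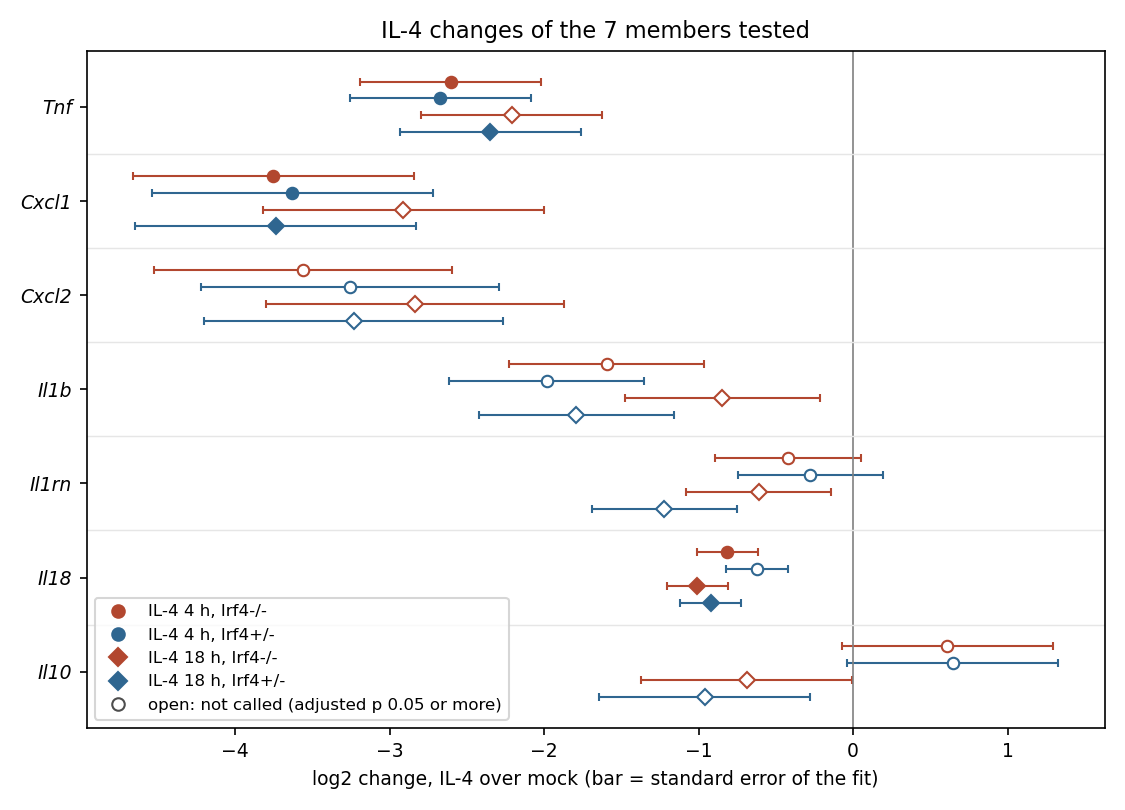
The log2 change under IL-4 over mock of the 7 members tested (horizontal axis, bar = standard error, 3 arrays per group), by time and genotype, filled where the adjusted p was under 0.05. The filled points belong to Tnf, Cxcl1 and Il18 and all lie left of 0, and the 4 h points of Il10 lie to the right of 0.

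Among the interleukin-1 genes, Il1b, the secreted pyrogenic cytokine, had lower values under IL-4 in 3 of 3 experiments in both genotypes and at both times. Its level in Irf4-/- cells was -3.37, -4.81 and -5.09 in mock, -5.54, -6.60 and -5.92 at 4 h, and -5.00, -5.58 and -5.23 at 18 h. Il1b in Irf4+/- cells was at -3.47, -2.47 and -4.37 in mock, -5.45, -4.31 and -6.51 at 4 h, and -5.53, -4.19 and -5.97 at 18 h. At 4 h of IL-4 it was well above background on only 2 of 3 arrays in each genotype. The experiments differed by as much as the conditions, so that mock and IL-4 groups overlapped in Irf4+/- cells at both times and in Irf4-/- cells at 18 h. The 4 h change was -1.60 ± 0.632 in Irf4-/- cells (adjusted p = 0.25) and -1.98 ± 0.632 in Irf4+/- cells (adjusted p = 0.108). The 18 h change was -0.85 ± 0.632 (adjusted p = 0.671) and -1.79 ± 0.632 (adjusted p = 0.173). With the replicate block Il1b fell in Irf4+/- cells at 4 h (adjusted p = 0.0233) and 18 h (adjusted p = 0.043), and the Irf4-/- changes did not pass (adjusted p = 0.0624 and 0.303).

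Il1rn, which encodes the antagonist that occupies the interleukin-1 receptor without signalling, was measured by 2 probes. On the brighter probe, which was tested, the level in Irf4-/- cells was -0.07, 0.12 and -0.09 in mock, -0.81, 0.04 and -0.53 at 4 h, and -1.06, -0.58 and -0.22 at 18 h. On Irf4+/- arrays it was -1.28, -0.35 and -0.01 in mock, -1.56, -0.51 and -0.41 at 4 h, and -2.95, -1.13 and -1.22 at 18 h. Experiment A was the lowest after 18 h of IL-4 in both genotypes, and on both probes the level was below mock at 18 h in 3 of 3 experiments. The 18 h change was -0.61 ± 0.47 in Irf4-/- cells (adjusted p = 0.683) and -1.22 ± 0.47 in Irf4+/- cells (adjusted p = 0.233, and 0.00982 with the replicate block). The 4 h change was -0.42 ± 0.47 in Irf4-/- cells (adjusted p = 0.813) and -0.28 ± 0.47 in Irf4+/- cells (adjusted p = 0.971). On the dimmer probe the 18 h differences were -0.52, -0.19 and -0.18 in Irf4-/- cells and -2.0, -0.69 and -0.75 in Irf4+/- cells. That probe was well above background on only 2 of 3 Irf4+/- arrays at 18 h. Il1a, the membrane-linked relative of Il1b, was near background, since 1 of its probes was well above background on 0 arrays and the other on 2 of 18, both in IL-4 groups of Irf4+/- cells.

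Il10, which damps inflammatory cytokines, was the only one of the 7 members tested whose mean change under IL-4 differed in sign between 4 h and 18 h in either genotype. Its level in Irf4-/- cells was -2.38, -2.17 and -2.02 in mock, -2.13, -1.98 and -0.64 at 4 h, and -3.62, -2.62 and -2.41 at 18 h. Il10 in Irf4+/- cells was at -2.66, -2.84 and -1.77 in mock, -3.04, -2.16 and -0.13 at 4 h, and -4.56, -3.28 and -2.30 at 18 h. Experiment C was high at 4 h in both genotypes. The 4 h change from mock was 0.61 ± 0.683 in Irf4-/- cells (adjusted p = 0.814) and 0.65 ± 0.683 in Irf4+/- cells (adjusted p = 0.878), and the 18 h change was -0.69 ± 0.683 (adjusted p = 0.773) and -0.96 ± 0.683 (adjusted p = 0.793). From 4 h to 18 h of IL-4 the level was lower at 18 h in 3 of 3 experiments of both genotypes, with differences of -1.49, -0.64 and -1.77 in Irf4-/- cells and -1.53, -1.12 and -2.17 in Irf4+/- cells. That difference was -1.3 ± 0.683 in Irf4-/- cells (adjusted p = 0.731, and 0.0585 with the replicate block) and -1.61 ± 0.683 in Irf4+/- cells (adjusted p = 0.434, and 0.0191 with the block).

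**Figure D3:**
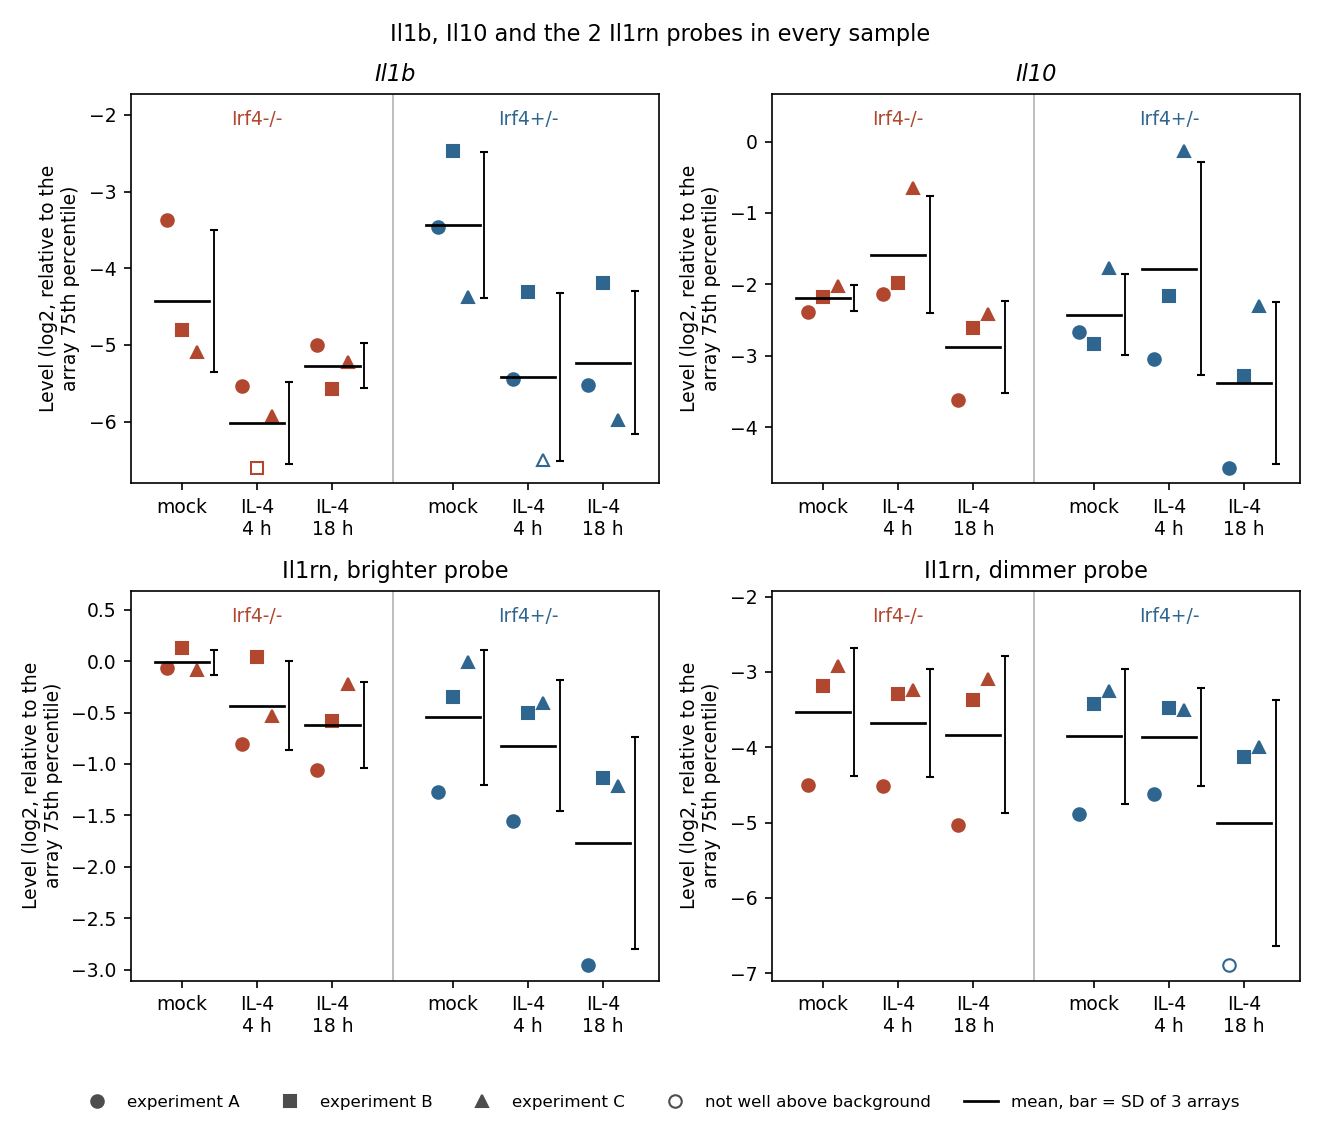
Levels of Il1b, Il10 and both Il1rn probes on each array (vertical axis, log2 relative to the array's 75th percentile), drawn as in the plot of the members that fell. The 3 experiments of a group are as far apart as the conditions for Il1b, and the 18 h arrays of Il10 lie below the 4 h arrays of the same experiment.

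Il6 and Il12b were read close to background. Il6, an acute-phase cytokine, was well above background on 5 of 18 arrays, all of them with IL-4. Its level in Irf4-/- cells was -7.31, -8.14 and -8.89 in mock, -4.85, -7.68 and -7.55 at 4 h, and -3.80, -7.66 and -8.28 at 18 h, and only experiment A was above background. Il6 in Irf4+/- cells was at -8.22, -8.39 and -8.07 in mock, -5.06, -6.55 and -6.89 at 4 h, and -4.06, -6.23 and -7.04 at 18 h, where A and C were above background at 18 h and A alone at 4 h. IL-4 arrays lay above mock in 3 of 3 experiments of both genotypes at each time, by the most in A. Il6 did not pass the filter, and without it the adjusted p was 0.84 and 0.8 in Irf4-/- cells and 0.628 and 0.468 in Irf4+/- cells at 4 h and 18 h.

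Il12b, the shared subunit of interleukin-12 and interleukin-23, was well above background on 6 of 18 arrays, 4 of them mock. Its level in Irf4-/- cells was -4.56, -7.15 and -6.06 in mock, -6.01, -7.78 and -6.68 at 4 h, and -6.93, -8.41 and -8.26 at 18 h. Il12b in Irf4+/- cells was at -5.92, -6.55 and -5.89 in mock, -6.26, -6.93 and -7.55 at 4 h, and -7.69, -7.48 and -8.17 at 18 h. No array was above background at 18 h of IL-4, and the level was below mock in 3 of 3 experiments of each genotype and time. Of the 3 mock arrays, 2 were above background in each genotype. Without the filter the 18 h change had an adjusted p of 0.175 in Irf4-/- cells and 0.281 in Irf4+/- cells.

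**Figure D4:**
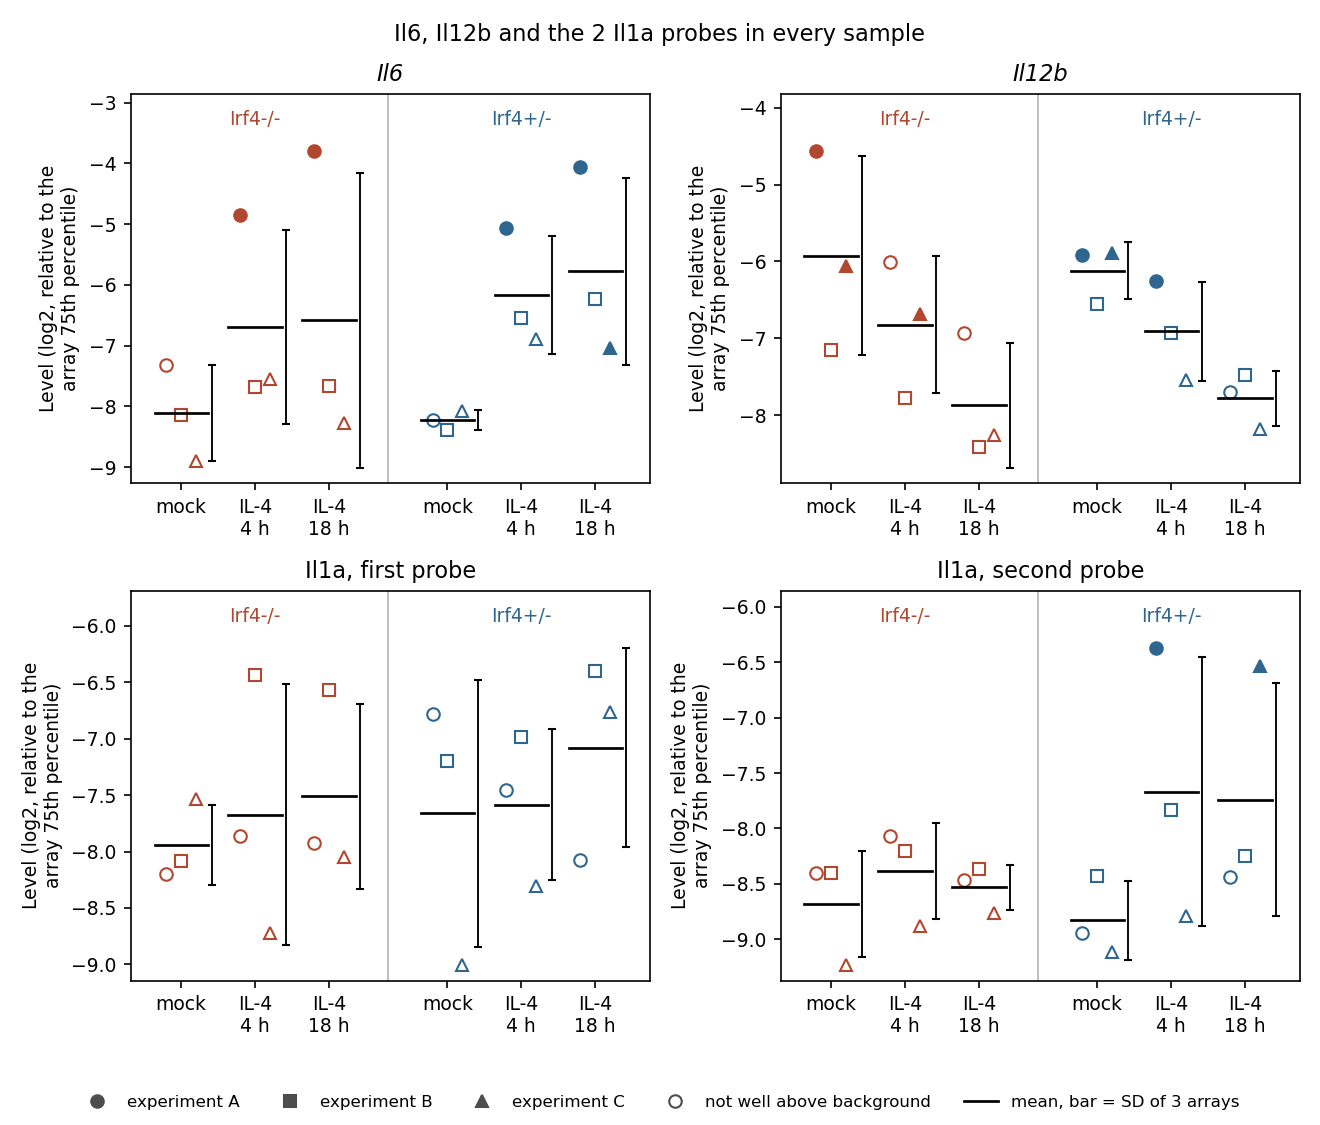
Levels of Il6, Il12b and both Il1a probes on each array (vertical axis, log2 relative to the array's 75th percentile), drawn as in the plot of the members that fell. Most symbols are open, the filled symbols of Il6 are IL-4 arrays with experiment A the highest, and 4 of the 6 filled symbols of Il12b are mock arrays.

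Between 18 h and 4 h of IL-4, limma called 0 members in either genotype, against 0.568% of all genes tested in Irf4-/- cells and 1.12% in Irf4+/- cells. An unadjusted p under 0.05 was found for 0 and 1 members, and for 1241 and 1470 of all 15497 genes tested. With the replicate block limma called 0 members in Irf4-/- cells (8.34% of genes) and 2 in Irf4+/- cells (11.4%), namely Il10 and Il1rn. There Il1rn had a difference of -0.95 and an adjusted p of 0.0487. For Tnf the difference was 0.40 ± 0.585 in Irf4-/- cells and 0.32 ± 0.585 in Irf4+/- cells, with 18 h above 4 h in 3 of 3 experiments of both. For Cxcl1 and Cxcl2 it was 0.84 ± 0.91 and 0.73 ± 0.966 in Irf4-/- cells, above 0 in 3 of 3 experiments, and -0.11 ± 0.91 and 0.02 ± 0.966 in Irf4+/- cells, with experiments on both sides of 0.

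The genotypes were then compared in each condition. Limma called 0 members in mock, at 4 h and at 18 h, where the shares of all genes called were 0%, 0% and 0.0258%. An unadjusted p under 0.05 was found for 0, 0 and 1 members, and for 360, 120 and 462 of all 15497 genes tested. These gene counts are below the share of 0.05 that calibrated p-values give where nothing differs. They and the 95% intervals below come from the fit without the block, which keeps the differences between experiments in its spread. The replicate block called 0 members as well, with 0.0323%, 0.0258% and 0.432% of genes. The 1 member with an unadjusted p under 0.05 was Il1rn at 18 h, higher in Irf4-/- cells by 1.15 ± 0.47 (adjusted p = 1.00, and 0.1 with the replicate block), a difference with a 95% interval of 0.14 to 2.15 before any adjustment. Both Il1rn probes were higher in Irf4-/- cells in 3 of 3 experiments, and the 2 groups did not overlap on the brighter probe, which 5.94% of all genes tested showed in that comparison. Only 1 slide held both genotypes, with 1 array of each in different conditions, so a fit with slide as a fixed block says nothing on the genotypes. Il18 did not overlap at 4 h, where all Irf4-/- arrays lay below all Irf4+/- arrays (2.53% of genes), and 0 members were free of overlap in mock (6.75%). Tnf was 0.70 ± 0.585 higher in Irf4-/- cells in mock, 0.77 ± 0.585 at 4 h and 0.84 ± 0.585 at 18 h, with 95% intervals of -0.55 to 1.95, -0.48 to 2.02 and -0.41 to 2.09. Cxcl1 differed by 0.31, 0.18 and 1.13 (each ± 0.91) and Cxcl2 by 0.38, 0.08 and 0.78 (each ± 0.966). Il1b was -0.99, -0.60 and -0.04 (each ± 0.632), Il10 0.23, 0.19 and 0.50 (each ± 0.683) and Il18 -0.13, -0.32 and -0.21 (each ± 0.199), all as Irf4-/- minus Irf4+/- in mock, at 4 h and at 18 h.

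The IL-4 response itself was compared between genotypes. Limma called 0 members at either time, with 0% of all genes called and 0 members at an unadjusted p under 0.05, also with the replicate block. Without the block, 57 and 83 of all 15497 genes tested had such an unadjusted p at 4 h and 18 h. These counts are below the share of 0.05 that calibrated p-values give where nothing differs. That fit keeps the differences between experiments in its spread, and the 95% intervals below come from it. For Tnf the response in Irf4-/- cells minus that in Irf4+/- cells was 0.07 at 4 h (95% interval -1.70 to 1.84) and 0.14 at 18 h (-1.63 to 1.91). For Cxcl1 it was -0.12 (-2.88 to 2.63) at 4 h and 0.83 (-1.93 to 3.58) at 18 h, and for Il18 -0.19 (-0.79 to 0.41) and -0.08 (-0.69 to 0.52). The interval was the narrowest for Il18 and the widest for Cxcl1 among these 3 genes. At 4 h and 18 h the difference was 0.39 and 0.94 for Il1b, and -0.14 and 0.61 for Il1rn. It was -0.30 and 0.40 for Cxcl2, and -0.04 and 0.27 for Il10. The 18 h interval was -0.97 to 2.86 for Il1b. At 18 h the difference was above 0 in 3 of 3 experiments for Cxcl1, Il1b, Il10 and both Il1rn probes. It was above 0 in 2 of 3 for Tnf and Cxcl2, and below 0 in 3 of 3 for Il18.

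The members did not all vary together. Over the 18 arrays, Cxcl1 and Cxcl2 had a Pearson correlation of 0.979, Tnf and Cxcl1 of 0.968 and Tnf and Cxcl2 of 0.939, and once each group's mean was taken out these were 0.937, 0.932 and 0.852. Il10 correlated with Tnf at 0.319 over all arrays but at 0.850 within groups, and with Cxcl1 at 0.351 and 0.844. Il1b ran with the other members the least within groups, at -0.531 with Tnf and -0.360 with Cxcl1. Il18 was at -0.232 with Tnf within groups and at 0.587 over all arrays. These arrays share 3 experiments, pools of cells and scaling, and the values describe them only. Searching 15435 other genes over the same arrays, the levels most like Tnf were those of Ptk2b (0.953) and B4galt6 (0.952), and the levels most like both chemokines were those of Basp1 (0.952 with Cxcl1, 0.973 with Cxcl2) and Fndc3b (0.938 and 0.951). For Il18 they were Cd14 (0.958) and Tlr2 (0.944), which encode parts of bacterial product receptors, for Il1b Arhgef6 (0.881) and Slc23a3 (0.875), for Il1rn Trpm2 (0.917) and Mctp1 (0.910), and for Il10 BC018507 (0.892) and Fam3b (0.891).

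Genes of NF-kB signalling and its feedback were read from a list of 25, all 25 tested. At 4 h, 6 fell in Irf4-/- cells and 5 in Irf4+/- cells (1.69% and 1.94% of all genes tested), at 18 h 5 and 7 fell (1.42% and 2.02%), and limma called 0 higher in these 4 comparisons. Under the replicate block, 8 and 9 fell at 4 h and 2 and 2 rose (18.2% of all genes called either way in both genotypes). At 18 h of IL-4, 10 fell in each genotype and 1 and 0 rose in that fit (18.4% and 15.5% of all genes). The largest change was that of Nfkbiz, the inducible nuclear partner of NF-kB that is needed for part of the Il6 and Il12b programme. It fell in all 4, with log2 changes at 4 h of -3.69 ± 0.534 in Irf4-/- cells (adjusted p = 0.000991) and -3.75 ± 0.534 in Irf4+/- cells (adjusted p = 0.000781), and at 18 h of -2.83 and -3.08. Traf1, an adaptor of Tnf receptors, also fell in all 4, with changes of -1.54 and -1.27 at 4 h and -1.59 and -1.3 at 18 h (each ± 0.338) in Irf4-/- and Irf4+/- cells. Irak2, a kinase of the interleukin-1 and Toll-like receptor pathway, fell at 4 h with changes of -1.28 and -1.18 (each ± 0.225), and Relb, an NF-kB subunit, fell at 18 h with changes of -1.06 and -1.18 (each ± 0.24). The list's median log2 change was -0.04 and -0.22 at 4 h and -0.24 and -0.21 at 18 h in Irf4-/- and Irf4+/- cells, beside medians of all genes of 0.08, -0.02, 0.12 and 0.02.

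**Figure D5:**
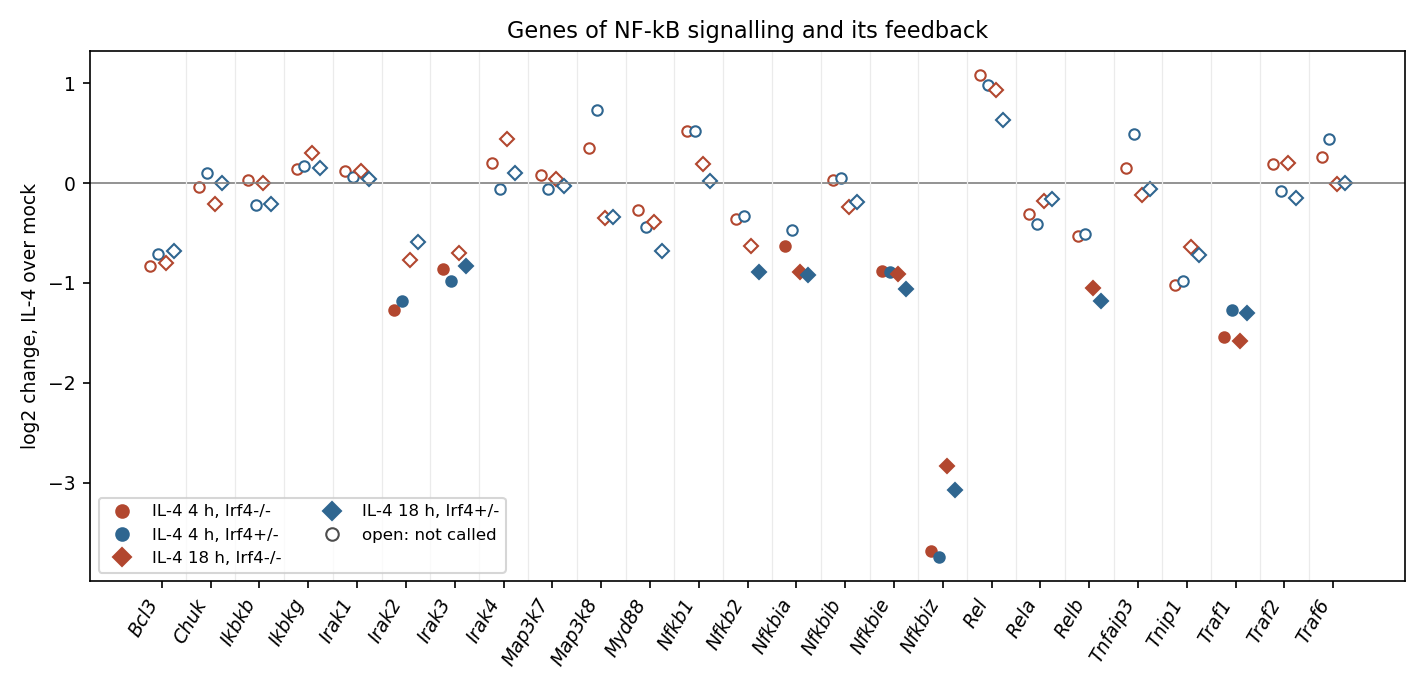
The log2 change under IL-4 over mock (vertical axis) of 25 genes of NF-kB signalling and its feedback, by time and genotype, filled where the adjusted p was under 0.05. All filled symbols lie below 0, with Nfkbiz at -3.69 and -3.75 at 4 h in Irf4-/- and Irf4+/- cells the lowest.

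Among the receptors, a few genes rose and most did not pass the test. Of 18 receptors, decoys and binding proteins of the members, 17 were tested, and 3 rose in Irf4-/- cells and 2 in Irf4+/- cells at each time (all genes that rose: 2.22% and 2.33% at 4 h, 2.12% in both at 18 h), while limma called 0 lower. The blocked fit called 18.2% of all genes either way in both genotypes at 4 h, and 18.4% and 15.5% at 18 h. In it 7 and 4 of the list rose at each time in Irf4-/- and Irf4+/- cells, and 1 fell in each comparison. That gene, named after its values were seen, was Il10ra, the ligand-binding receptor chain for Il10, with changes of -0.68 and -0.58 at 4 h and -0.86 and -0.97 at 18 h (block adjusted p = 0.0174, 0.037, 0.00512 and 0.0022). Il1r1, the signalling receptor for Il1a and Il1b and the target of Il1rn, rose by 4.37 ± 0.765 at 4 h in Irf4-/- cells (adjusted p = 0.00376) and by 3.73 ± 0.765 in Irf4+/- cells (adjusted p = 0.0102), and by 3.53 and 3.58 at 18 h. Il6st, the signalling chain shared by the Il6 family of cytokines, rose by 0.97 and 1.05 at 4 h and by 1.05 and 1.09 at 18 h (each ± 0.161). Il1rap, the partner chain of Il1r1, rose at 4 h in Irf4-/- cells by 1.82 ± 0.326 (adjusted p = 0.00468), and Tnfrsf1b, the second Tnf receptor, at 18 h in Irf4-/- cells by 0.87 ± 0.22 (adjusted p = 0.0408). The list's median was 0.39 and 0.33 at 4 h and 0.67 and 0.38 at 18 h in Irf4-/- and Irf4+/- cells.

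Of 26 other secreted inflammatory mediators, 15 were tested, and 1 fell in Irf4-/- cells and 2 in Irf4+/- cells at each time (all genes that fell: 1.69% and 1.94% at 4 h, 1.42% and 2.02% at 18 h), while limma called 0 higher. With the replicate block 3 and 3 fell at 4 h and 7 and 6 at 18 h, and 4 and 2 rose at 4 h and 3 and 1 at 18 h. The blocked shares of all genes called either way were 18.2% in both genotypes at 4 h, and 18.4% and 15.5% at 18 h. Ccl7, a monocyte chemokine named after its values were seen, was the one that rose in all 4 blocked comparisons, with changes of 3.51 and 4.00 at 4 h (block adjusted p = 0.00148 and 0.000526, against 0.124 and 0.0663 without the block) and 3.08 and 3.45 at 18 h (0.00387 and 0.00161, against 0.207 and 0.132). Ccl3, a chemokine for monocytes and T cells, fell at 4 h with changes of -1.91 and -1.96 (each ± 0.396) in Irf4-/- and Irf4+/- cells. Ccl4, its close relative, fell in Irf4+/- cells with changes of -1.56 at 4 h and -1.64 at 18 h (each ± 0.418), and Ebi3, a subunit of interleukin-27, fell at 18 h with changes of -0.69 and -0.91 (each ± 0.153) in Irf4-/- and Irf4+/- cells. Of 14 genes of mRNA decay and signal damping, 13 were tested, and 1 rose at 4 h and 2 at 18 h in each genotype (all genes that rose: 2.22% and 2.33% at 4 h, 2.12% in both at 18 h), while limma called 0 lower. With the replicate block 3 rose at 4 h and 4 at 18 h in each genotype, beside the same blocked shares of all genes. In that fit 1 and 2 fell at 4 h and 0 and 1 at 18 h. Dusp4, a phosphatase of MAP kinases, rose by 2.69 ± 0.492 in Irf4-/- cells and 3.28 ± 0.492 in Irf4+/- cells at 4 h and by 2.40 and 2.77 at 18 h, and Atf3, a transcriptional repressor of cytokine genes, rose by 1.17 ± 0.244 and 1.03 ± 0.244 at 18 h. Of 13 genes of processing and release, 11 were tested. Only Capn2, a calpain protease, was called, with a change of -0.59 ± 0.153 at 4 h in both genotypes. This was 1 of 11 at 4 h (all genes that fell: 1.69% and 1.94%) and 0 at 18 h (1.42% and 2.02%). With the replicate block 4 and 4 fell at 4 h and 3 and 4 at 18 h. In that fit 1 rose at 18 h in each genotype, beside the same blocked shares of all genes.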

How the data were processed

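Macrophage RNA of 18 samples in 6 groups of 3 was measured on single-colour arrays, grouped by sample title, whose letters A, B and C name experiments. Per the file headers, the authors extracted each spot's background-subtracted intensity with Agilent Feature Extraction 9.5.1 (also in the submitters' processing notes). One deposited table covers all samples with log2 values, and these matched the levels below minus the Irf4+/- mock array of the same letter (lowest correlation 0.9999 over 23604 probes, column medians -0.18 to 0.21). Its Irf4+/- mock columns are all 0, and no source used here describes how it was computed.

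Control spots were left out, and among the 43379 others on an array between 63.4% and 74.4% exceeded background clearly by the scanner software's own flag, while 63 to 182 had an outlier flag and were dropped. The intensity was put on the log2 scale after division by the array's 75th percentile, and spots of a probe were averaged. A probe was above background where over 0.5 of its spots were, and was kept where it was above background on all 3 arrays of a group. Genes took their brightest kept probe, by RefSeq accession, symbol or synonym.

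Tests used limma 3.58.1 in R 4.3.3, fitting 6 group means to the 18 arrays, moderated two-sided tests and Benjamini-Hochberg adjustment over 15497 genes at 0.05, and the code was tested on simulated data. The spread is between samples of 3 experiments. Same-letter deviations correlated in all 45 pairs of arrays (0.434 to 0.876, median 0.631, against -0.655 to 0.267 between letters), so the letters, which per the labels mark littermate experiments, pair the samples. Plots and files were handled in Python 3.11.15 with pandas 2.3.3 and matplotlib 3.10.9. Alternatives were other background corrections, scalings, filters, probe choices, blocks, the deposited table and leaving out each array. The members, lists and tests were chosen with earlier results of these data known. All 10 members are named, and of the other lists at most the 3 called genes with the largest change in a comparison, besides the 2 genes most like each member.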

Additional observations from a re-analysis of the deposited data

How the results depend on the processing

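The number of members called under IL-4 depended on the fit. At 4 h in Irf4-/- cells it was 3, against 1 with normexp background correction and with no filter on dim probes, and 5 with the pool of cells or the slide as a random block or the slide as a fixed block. At 18 h in Irf4-/- cells it was 1, against 0 with normexp, 4 with normexp without spots far below their local background, 2 with quantile normalization and with only the groups of the comparison, 4 with the replicate block, 6 with the pool and 5 with the slide as a block of either kind. At 4 h in Irf4+/- cells it was 2, against 1 with normexp, median scaling, quantile normalization and no filter, 0 with only the groups of the comparison, and 5 with the replicate block, the pool and either slide block. At 18 h in Irf4+/- cells it was 3, against 1 with normexp and with median scaling, 0 with only the groups of the comparison, and 6 with the replicate block, the pool and either slide block. Between 18 h and 4 h it was 0, against 1 with the pool and 2 with either slide block in Irf4-/- cells, and 2 with the replicate block, the pool and either slide block in Irf4+/- cells. The slide as a fixed block and the normexp correction without far-dim spots, up to 83 per array, were chosen after seeing the data. Over all genes, 549 to 661 were called in these 4 comparisons with mock, against 136 to 243 with normexp, 164 to 337 with only the groups of the comparison, 2404 to 2848 with the replicate block, 2745 to 5596 with the pool or slide blocks, and 993 and 1101 for Irf4-/- cells in the deposited table. Median scaling at 4 h in Irf4+/- cells split the calls into 320 higher and 163 lower, against 361 and 300, and normexp at 4 h in Irf4-/- cells into 157 and 64, against 344 and 262. Normexp put the median of all genes at 0.18 at 4 h in Irf4+/- cells and at -0.14 in Irf4-/- cells, against -0.02 and 0.08. The causes of these differences were not tested.

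Leaving out 1 array gave 0 to 4 members at 4 h and 0 to 2 at 18 h in Irf4-/- cells, and 0 to 3 at both times in Irf4+/- cells. In Irf4-/- cells the 4 h count was 0 without mock A, mock B, mock C, IL-4 A or IL-4 C, and the 18 h count was 0 without IL-4 18 h C, where the adjusted p of Il18 was 0.0574, and 2 without Irf4+/- mock B, mock C, IL-4 4 h A, IL-4 4 h C, IL-4 18 h A or IL-4 18 h C. In Irf4+/- cells the 4 h count was 0 without mock A, mock C, IL-4 A or IL-4 B, and the 18 h count was 0 without mock A and 1 without mock C, IL-4 A or IL-4 B, while without IL-4 C it was 2 and Il18 was not called (adjusted p = 0.0812). The log2 changes of the called members stayed below 0 with any 1 array left out, for example between -2.86 and -1.84 for Tnf at 18 h in Irf4+/- cells and between -4.59 and -2.78 for Cxcl1. Among the other alternatives 1 value reversed, Cxcl1 at 18 h in Irf4+/- cells under normexp (0.375, with adjusted p between 8.72e-05 and 0.703 over its alternatives). No alternative or left-out array called a member between the genotypes or in the difference of the IL-4 response, where slide as a fixed block, with 1 slide holding both genotypes, carries no weight. The deposited table gave no value for comparisons with Irf4+/- mock. The 3 arrays per group, and for Cxcl1, Cxcl2, Il1a and Il1rn 1 spot per probe, limit the precision.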
